A study of Mus musculus with 6 samples.

Results

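The receptors described here are cell-surface proteins through which hormones, nerves and nutrients adjust islet hormone secretion. A list of 10 genes defined them: Glp1r, Gipr, Gcgr, Ffar1, Gpr119, Adra2a, Chrm3, Sstr3, Prlr and Galr1. Every probe set (the group of short oligonucleotides that reads 1 transcript) whose platform annotation gave 1 of these symbols and no other was taken, which gave 9 probe sets for 6 of the 10 genes, out of 34945 probe sets for 18193 genes with a single symbol. Ffar1, Gpr119, Adra2a and Prlr had no probe set with that symbol in the annotation used and were not analysed here. Isolated mouse islets, the endocrine clusters of the pancreas, gave RNA for 6 Affymetrix arrays, 3 of Vhlh knockout (VhlhKO) and 3 of control animals. In the knockouts, floxed Vhlh was removed in beta cells with RIP2-Cre, a Cre recombinase under a rat insulin promoter, so the other islet cells were not targeted. The labels call the remaining mice control and do not say whether these carried Cre or the floxed alleles. In each genotype, replicate 1 was male and 26 weeks old, replicate 2 female and 20 weeks old, and replicate 3 male and 18 weeks old. The design text speaks of 3 islet batches per genotype and does not give the number of animals in a batch, so p-values reflect how much these batches vary.

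Islet receptors act mainly through heterotrimeric G proteins. Receptors for the gut incretin hormones (Glp1r for GLP-1, Gipr for GIP) and for glucagon (Gcgr) raise cyclic AMP and potentiate glucose-stimulated insulin release. Chrm3, the muscarinic acetylcholine receptor that carries vagal input, works through phospholipase C, while the somatostatin receptor Sstr3, which sits on the primary cilium of mouse beta cells, and the galanin receptor Galr1 lower cyclic AMP and restrain secretion. The Vhlh gene (symbol Vhl) encodes a protein that targets hypoxia-inducible factor (HIF) for degradation, and the question here is which receptor transcripts change when beta cells lose it.

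The promoters of Glp1r, Gcgr and Sstr3 are shown because these 3 were the tested receptors that were lower in the VhlhKO sample of every same-numbered pair. Each is the RefSeq window of GRCm38.p6 from 250 bases before to 50 bases after an annotated start, read 5′ to 3′ on the gene's strand. Capitals mark ACGTG or GCGTG, the core of the HIF response element, searched on both strands, so that CACGT or CACGC is the same core on the other strand.
Glp1r, chr17:30901617-30901916, plus strand: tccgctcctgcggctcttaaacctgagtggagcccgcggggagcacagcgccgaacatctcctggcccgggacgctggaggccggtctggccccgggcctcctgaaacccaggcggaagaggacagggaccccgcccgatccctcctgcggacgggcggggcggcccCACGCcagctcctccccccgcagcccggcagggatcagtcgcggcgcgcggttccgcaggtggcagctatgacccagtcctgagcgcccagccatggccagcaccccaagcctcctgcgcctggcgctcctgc
Gcgr, chr11:120530477-120530776, plus strand: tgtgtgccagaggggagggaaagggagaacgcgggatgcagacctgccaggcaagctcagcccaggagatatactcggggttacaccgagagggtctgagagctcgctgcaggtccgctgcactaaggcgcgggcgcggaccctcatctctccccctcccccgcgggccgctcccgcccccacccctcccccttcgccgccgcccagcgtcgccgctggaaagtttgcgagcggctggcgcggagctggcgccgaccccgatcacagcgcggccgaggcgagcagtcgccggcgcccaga
Sstr3, chr15:78544296-78544595, minus strand: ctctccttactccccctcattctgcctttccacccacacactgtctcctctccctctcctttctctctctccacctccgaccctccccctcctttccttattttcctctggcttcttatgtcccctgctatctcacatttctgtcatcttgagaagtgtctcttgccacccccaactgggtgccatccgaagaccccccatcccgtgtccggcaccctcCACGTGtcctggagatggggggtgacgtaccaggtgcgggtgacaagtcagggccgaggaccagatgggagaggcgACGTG
The Glp1r window held 1 match, 83 bases before the start. The Gcgr window held 0. In the Sstr3 window, a pair of matches on opposite strands overlapped in CACGTG, beginning 31 and 30 bases before the start, and a further match lay 45 bases after it. Sstr3 had a second annotated start whose window held 0. The RefSeq span of Gcgr begins at chr11:120529185 and that of Sstr3, on the minus strand, at chr15:78549365. Their windows therefore lie inside the genes, and the outermost start of each was not searched. A match was present in 43.8% of all 32851 windows of this length, so its presence in these windows is a description of their letters and not of a binding site.

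Values are the authors' MAS5 signals in linear units, and differences are on the log2 scale, VhlhKO minus control. The array medians lay between 101.9 and 122.7 signal units. Of 11609 genes tested, 2 passed an adjusted p of 0.05, which is 0.0172%. Of 16 listed genes induced by HIF, such as the glucose transporter Slc2a1, 13 were tested. At an unadjusted limma p under 0.05, 12 of the 13 were higher in VhlhKO islets, against 1.99% of all genes. Of these, 1 (Ak4) passed the adjusted threshold. The list was chosen with earlier results of these data known, so the count is a description only. The other tested member, the vessel growth factor gene Vegfa, had a difference of -0.46 (adjusted limma p 0.9998). It was lower in 3 of 3 pairs, as were 11.3% of all genes. Its groups did not overlap, and 2.77% of all genes were lower in that way. In replicate 3 it read 3651 in VhlhKO and 3699 in control islets. Vhl itself read 344, 358 and 467 signal units in VhlhKO islets, against 457, 639 and 839 in control islets, and was lower in 3 of 3 pairs, with an adjusted limma p of 0.9998; where its probes lie relative to the deleted part was not analysed here, so this is a weak check of the labels. Islet hormone transcripts were read far above the array medians. Ins2, through a probe set that can bind related transcripts, lay between 11545 and 31477 in VhlhKO islets, against 14810 to 18232 in control islets, and Gcg lay between 31892 and 55684 in VhlhKO islets, against 41423 to 44117 in control islets. In bulk islets, fewer cells of a type and less RNA per cell cannot be told apart.

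Of the 6 receptors with a probe set, 5 were bright enough to test (signal over the median of the array on 3 or more of the 6), each on 5 or 6 arrays. None of the 5 passed in limma's fit over all genes, against 0.0172% of genes that did, and 0 had an unadjusted p under 0.05, against 2.58% of genes. That count rests on the arrays and the settings: the unadjusted limma p of Glp1r was 0.0378 without VhlhKO replicate 2, 0.0387 with probe sets averaged, 0.0310 for eBayes without trend and 0.0359 with array weights, and that of Gcgr was 0.0447 without VhlhKO replicate 1. The adjusted p was 0.998 or higher in each. All 5 had a log2 difference below 0, where 50% of all genes did, with a median of -0.31 beside -0.00028 over all genes. Each gene was read here through its brightest probe set. Dimmer probe sets gave 0.66 for Sstr3, and 0.22 and -0.17 for Galr1. With probe sets averaged, Sstr3 was at 0.17 and the median of the 5 at -0.078. The receptors were chosen with earlier results of these data known. In 3 of the 5 receptors (Glp1r, Gcgr and Sstr3) the VhlhKO sample was the lower in all 3 same-numbered pairs, as it was for 11.3% of all genes. The receptors share the same 6 arrays, and no test was made over the 5 as a group.

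**Figure D1:**
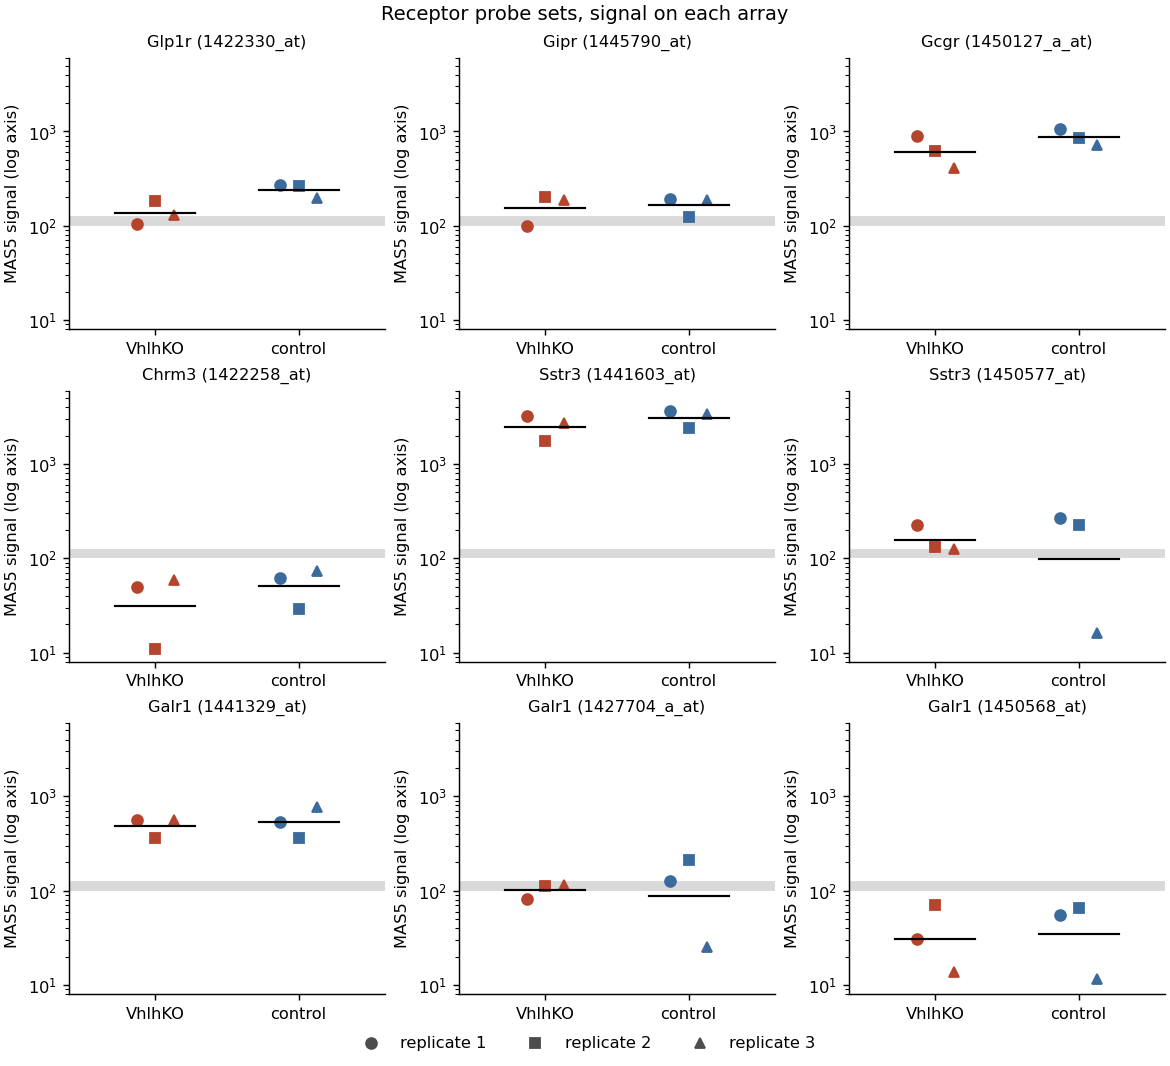
MAS5 signal (log axis) of the 9 receptor probe sets on each array, VhlhKO left and control right; marker shapes give the replicate number, black lines the geometric means, and the grey band the range of array medians (101.9 to 122.7). Glp1r is the only panel in which the groups do not overlap. Chrm3 lies below the band throughout.

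Glp1r, the GLP-1 receptor of beta cells, had the lowest p of the receptors. Its signal was 104, 185 and 131 in VhlhKO replicates 1, 2 and 3, against 273, 267 and 195 in the control replicates. Every VhlhKO value lay below every control value, although VhlhKO replicate 2 and control replicate 3 were only 10 units apart. Such a separation with lower knockout values was seen in 2.77% of all genes. The mean log2 signal was 7.09 ± 0.42 in VhlhKO and 7.92 ± 0.27 in control islets (SD, n = 3 each), so VhlhKO islets had 56.2% of the control level. The log2 difference of -0.83 had SE 0.39 and a 95% interval of -1.71 to 0.04, with an unadjusted limma p of 0.0600 and an adjusted p of 0.9998. The pairs differed by -1.39, -0.53 and -0.58. VhlhKO replicate 1 was below its array's median of 111.5 and VhlhKO replicate 3 lay close to its own of 101.9, so Glp1r was read near the dim end of the range. Without both arrays of replicate 1 the difference was -0.55, a change of more than 1.5 times.

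The tested genes whose log2 signals most resembled those of Glp1r over the 6 arrays were the zinc finger gene Zfp961, the innate immune receptor Tlr2, Rab8a, Lancl2 and the retinoblastoma relative Rbl2, with Pearson correlations between 0.976 and 0.982. A correlation above 0.9 was found for 87 genes among the 11609 tested. These values share the same 6 arrays. The 5 were picked for likeness to Glp1r on those arrays, so their lower VhlhKO means follow from that choice. The log2 differences of the 5 lay between -0.55 and -0.48, and none passed (adjusted limma p 0.9998 for each). Rab8a, a small GTPase of vesicle traffic, had 1009, 1546 and 1215 signal units in VhlhKO islets, against 1856, 1710 and 1611 in control islets. The 6 arrays ranked in the same order as for Glp1r.

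Gipr, the receptor of the other incretin, GIP, did not separate the genotypes. Its signal was 100.3, 202 and 186 in VhlhKO islets, against 191, 124 and 187 in control islets. The ranges overlapped widely, and the pairs differed by -0.93, 0.70 and -0.0063, in both directions. The mean difference was -0.08 (SE 0.44, 95% interval -1.07 to 0.91, adjusted limma p 0.9998). The interval therefore spans changes in either direction about as large as the difference seen for Glp1r. Its sign turned in 6 of 20 other settings, among them leaving out VhlhKO replicate 1 (0.24), while it was -0.28 without control replicate 2, -0.27 without VhlhKO replicate 2 and -0.47 without both arrays of replicate 2.

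Gcgr, the glucagon receptor, which beta cells share with liver, was read well above the array medians. Its signal was 887, 623 and 408 in VhlhKO replicates 1, 2 and 3, against 1058, 846 and 719 in control islets. VhlhKO replicate 1 lay inside the control range and the others below it, and within each genotype the value was highest in replicate 1 and lowest in replicate 3. The means were 9.25 ± 0.56 in VhlhKO and 9.75 ± 0.28 in control islets (log2, SD, n = 3 each), 70.5% of the control level. The difference of -0.50 had SE 0.34, a 95% interval of -1.27 to 0.27 and an adjusted limma p of 0.9998. The pairs differed by -0.25, -0.44 and -0.82. Without VhlhKO replicate 3 the difference was -0.22, and without VhlhKO replicate 1 it was -0.78.

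Chrm3, the muscarinic receptor, was too dim to test. Its signal was 49.1, 10.8 and 58.9 in VhlhKO islets, against 61.4, 28.9 and 72.6 in control islets, below the median of the array in every sample. The 3 pairs differed by -0.32, -1.42 and -0.30. An exact permutation test of the 6 log2 values gave a two-sided p of 0.5, where the smallest possible with 3 against 3 is 0.1. These values describe dim signal in both genotypes and say little about a change.

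Sstr3, the ciliary somatostatin receptor, was read far above the array medians by its main probe set. Probe set 1441603_at gave 3245, 1750 and 2712 in VhlhKO islets, against 3624, 2391 and 3402 in control islets. The groups overlapped, and replicate 2 was the lowest in both genotypes. VhlhKO islets had 80.5% of the control level, a difference of -0.31 (SE 0.32, 95% interval -1.02 to 0.40, adjusted limma p 0.9998). The pairs differed by -0.16, -0.45 and -0.33. Leaving out single arrays moved the Sstr3 difference both ways: it was -0.06 without VhlhKO replicate 2 and -0.20 without control replicate 1, but -0.504 without VhlhKO replicate 1 and -0.497 without control replicate 2.

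The other Sstr3 probe set, 1450577_at, near the array medians, disagreed on 1 array. It read 224, 133 and 126 in VhlhKO islets, against 267, 222 and 16.2 in control islets. Control replicate 3 was more than 10-fold below the other controls there, while the bright probe set read 3402 on the same array. Pairs 1 and 2 differed by -0.25 and -0.75 and pair 3 by 2.97, so the mean difference was 0.66 (exact permutation p 0.9). When both probe sets were averaged, the Sstr3 difference turned to 0.17.

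Galr1, the galanin receptor, had 3 probe sets, of which 1441329_at was read above the median on all arrays. That probe set gave 558, 364 and 565 signal units in VhlhKO islets, against 529, 365 and 772 in control islets. The ranges overlapped, with replicate 2 lowest in both genotypes. The difference was -0.13 (SE 0.35, 95% interval -0.92 to 0.67, adjusted limma p 0.9998), and it was 0.15 without control replicate 3 and -0.39 without control replicate 2.

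The other Galr1 probe sets ran opposite to 1441329_at over the 6 arrays. Their log2 signals had Pearson correlations with it of -0.83 for 1427704_a_at and -0.86 for 1450568_at, and of 0.71 with each other. Which probe set reports the Galr1 transcript was not tested. Probe set 1427704_a_at read 81.9, 112 and 115 in VhlhKO islets, against 126, 213 and 25.2 in control islets. Probe set 1450568_at read 30.7, 70.6 and 13.8 in VhlhKO islets, against 55.7, 65.0 and 11.7 in control islets, below the array medians throughout. Control replicate 3, the highest array of 1441329_at, was the lowest of both dimmer probe sets. Their mean differences were 0.22 and -0.17 (exact permutation p 1 for each). For both receptors with several probe sets, the sign of the difference depended on the probe set.

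**Figure D2:**
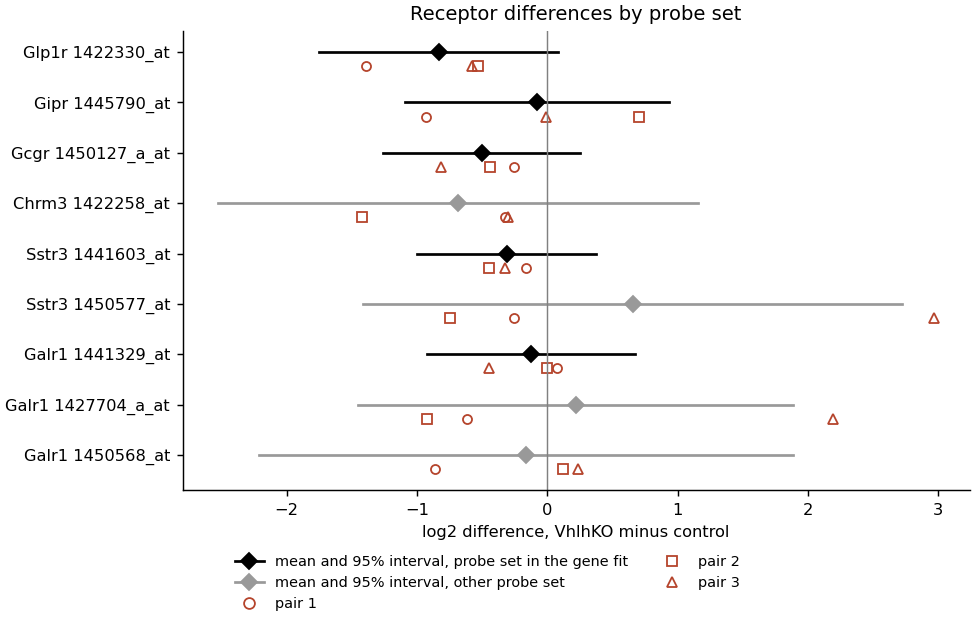
Log2 difference, VhlhKO minus control, for each receptor probe set: diamonds and bars are the mean and 95% interval from a limma fit of every single-symbol probe set with no filter, and open symbols are the 3 same-numbered pairs. All 9 intervals include 0; pair 3 of the dimmer Sstr3 probe set (2.97) and of Galr1 1427704_a_at (2.19) lie far from the other pairs.

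Cell type marker lists moved between the same arrays. Receptor differences under settings that used the beta cell or acinar markers are given here. Whether cell make-up accounts for the receptor values was not tested. Beta cell markers, 15 tested of 18 listed, had mean log2 signals of 13.05, 12.69 and 12.44 in VhlhKO replicates 1 to 3, against 13.07, 12.84 and 12.70 in the controls, and 9 of the 15 genes were below 0 (median -0.06). With all values centred on these markers, the differences were -0.69 for Glp1r, -0.36 for Gcgr and -0.17 for Sstr3, and those of Gipr (0.06) and Galr1 (0.02) turned above 0. That centring moved the median of all genes to 0.14. Acinar markers, 15 tested of 18, which stand for exocrine tissue, averaged 14.12, 14.66 and 9.21 in VhlhKO islets, against 14.09, 14.43 and 12.11 in control islets, so both replicate 3 arrays stood apart. With the acinar mean as a covariate Glp1r was at -0.78, Gcgr at -0.36, Sstr3 at -0.37, Galr1 at -0.23 and Gipr at -0.14. Alpha cell markers averaged 12.33 to 12.72 in VhlhKO and 12.18 to 12.48 in control islets (4 tested of 7), and delta and PP cell markers 13.48 to 13.64 in VhlhKO and 12.96 to 13.36 in control islets (4 of 5). Endothelial markers averaged 9.37 to 9.92 in VhlhKO and 8.90 to 9.07 in control islets (10 tested of 11). Fibroblast and matrix markers averaged 9.07 to 10.76 in VhlhKO and 7.78 to 8.94 in control islets (10 of 11), with VhlhKO replicate 3 the highest. Neural and Schwann markers averaged 7.82 to 8.63, against 6.58 to 7.86 (6 of 9), leukocyte markers 9.07 to 9.90, against 8.84 to 9.59 (4 of 10), and duct markers 9.41 to 10.72, against 9.11 to 10.38 (7 of 10). Acinar markers were below 0 in all 15 tested (median -1.01). Endothelial (median 0.62) and fibroblast and matrix markers (1.23) were above 0 in all 10 tested each. Alpha (0.15), delta and PP (0.34) and leukocyte markers (0.34) were above 0 in all 4 tested each. Of the duct markers 4 of 7 were above 0 (median 0.10), and of the neural and Schwann markers 5 of 6 (0.92).

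**Figure D3:**
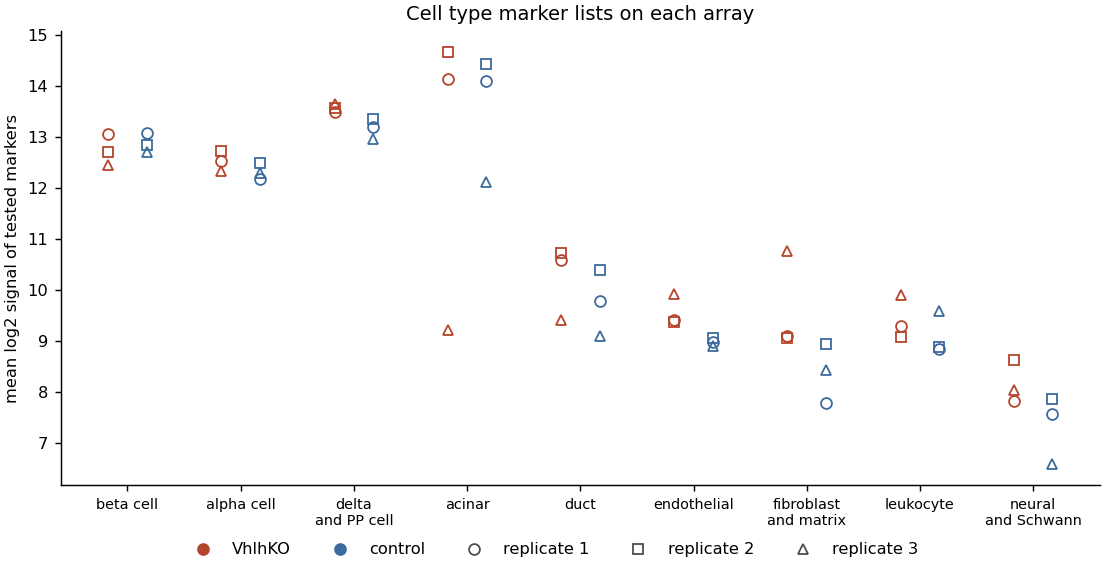
Mean log2 signal of the tested members of each cell type marker list on each array, VhlhKO left of control in each column; shapes give the replicate number. Acinar markers span 9.21 to 14.66 and are lowest in replicate 3 of each genotype, while beta cell markers span 12.44 to 13.07.

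Signalling genes around these receptors were read in 7 lists of 135 genes, of which 95 were tested. None passed in the fit over all genes, and 0 had an unadjusted p under 0.05, against 2.58% of all genes. Their median difference was 0.05, and 40 of the 95 were below 0, against 50% of all genes. The groups did not overlap for 7 of the 95, against 6.75% of all genes. In all 3 same-numbered pairs, 9 of the 95 (9.47%) were lower in VhlhKO, against 11.3% of all genes. The share of all genes that were higher in all 3 pairs was not counted.

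A list of islet and gut peptide genes with the protease gene Dpp4 had 5 tested members: Gcg, Sst and Gal, which encode ligands of these receptors, Npy, which does not, and Dpp4. The 4 peptide genes were above 0 and Dpp4 below. Sst, the somatostatin gene, read 29497, 20585 and 24131 signal units in VhlhKO islets, against 18565, 21615 and 18157 in control islets, a difference of 0.34 (SE 0.22). Gal, the galanin gene, varied more within than between genotypes: 466, 1662 and 85.8 in VhlhKO islets, against 213, 698 and 139 in control islets. Dpp4, the protease that inactivates incretins, read 378, 832 and 439 in VhlhKO islets, against 765, 511 and 945 in control islets, with a difference of -0.47 (SE 0.38). All of these had an adjusted limma p of 0.9998.

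Among 47 other receptors described in islets, 21 were tested, 11 below and 10 above 0, with a median of -0.01. The orphan receptor Gprc5b differed by 1.05 (SE 0.51) and its relative Gprc5c by -1.27 (SE 0.66). Gprc5b read 272, 162 and 337 in VhlhKO islets, against 61.6, 173 and 156 in control islets. Its groups overlapped, and its lowest value, in control replicate 1, was below the array medians. Gprc5c read 36.2, 71.8 and 197 in VhlhKO islets, against 149, 305 and 159 in control islets, so VhlhKO replicate 3 lay inside the control range. Oxtr, the oxytocin receptor, was higher in VhlhKO in 3 of 3 pairs, with 916, 1166 and 1330 units, against 628, 727 and 1003. Crhr1, the receptor of corticotropin-releasing hormone, differed by -0.73 (SE 0.48). The adjusted limma p was 0.9998 for each.

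All 17 G protein subunits were tested, and 12 lay above 0 with a median of 0.11. Gnai1, an inhibitory subunit, differed by 0.55 (SE 0.40), Gnb4 by 0.56 (SE 0.31), Gnao1, another inhibitory subunit, by -0.50 (SE 0.31) and Gna12 by -0.40 (SE 0.40). Of 29 genes of the cyclic AMP cascade 24 were tested, 16 above 0, with a median of 0.13. Rapgef3, a cyclic AMP-activated exchange factor (Epac1), differed by 0.66 (SE 0.35) and was higher in VhlhKO in 3 of 3 pairs, with overlapping groups. The groups did not overlap for 5 of the 24, against 6.75% of all genes: the adenylyl cyclases Adcy3 (0.52), Adcy4 (0.67) and Adcy5 (0.55) were higher and Adcy9 (-0.33) and the phosphodiesterase Pde3b (-0.22) lower in VhlhKO islets, each with an adjusted limma p of 0.9998. These 5 were named after their values were seen, and which islet cells gave their signals was not tested. The adenylyl cyclase Adcy7 differed by 0.97 (SE 0.57), where VhlhKO replicate 3 read 778 units and the other 5 arrays lay between 128 and 207. Pde10a, a phosphodiesterase, differed by -0.53 (SE 0.32) and was lower in 3 of 3 pairs, as were 11.3% of all genes. Prkaca, a catalytic subunit of protein kinase A, differed by -0.46 (SE 0.34).

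Phospholipase C and protein kinase C genes, 10 tested of 12, had a median of -0.07. Prkcb, a protein kinase C isoform, was the member of the 10 whose groups did not overlap, as was seen for 6.75% of all genes. It read 2338, 2299 and 2823 units in VhlhKO islets, against 3141, 3501 and 3939 in control islets, a difference of -0.50 (SE 0.25). Itpr3, an inositol trisphosphate receptor, differed by -0.34 (SE 0.38), Dgkz by 0.28 (SE 0.43) and Prkce by 0.25 (SE 0.47). Among 10 tested genes of receptor desensitization, with a median of 0.02, Rgs5 had the lowest p of the 95 genes (unadjusted limma p 0.0529, adjusted 0.9998). Rgs5, an inhibitor of G protein signalling that is also abundant in pericytes, read 6815, 7150 and 9660 units in VhlhKO islets, against 5793, 5195 and 5084 in control islets. Its groups did not overlap, as was seen for 6.75% of all genes. Rgs4 differed by 0.87 (SE 0.52), the receptor kinase Grk5 by -0.40 (SE 0.40) and Rgs9 by -0.18 (SE 0.31). Prolactin receptor signalling, 8 tested of 11, had 6 genes below 0 and a median of -0.07. Jak2, the kinase bound to the prolactin receptor, differed by -0.30 (SE 0.29) and was lower in 3 of 3 pairs, as were 11.3% of all genes. Men1 differed by -0.27 (SE 0.37), Socs3 by 0.67 (SE 0.78) and Stat5b by 0.04 (SE 0.25). The adjusted limma p of each was 0.9998.

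**Figure D4:**
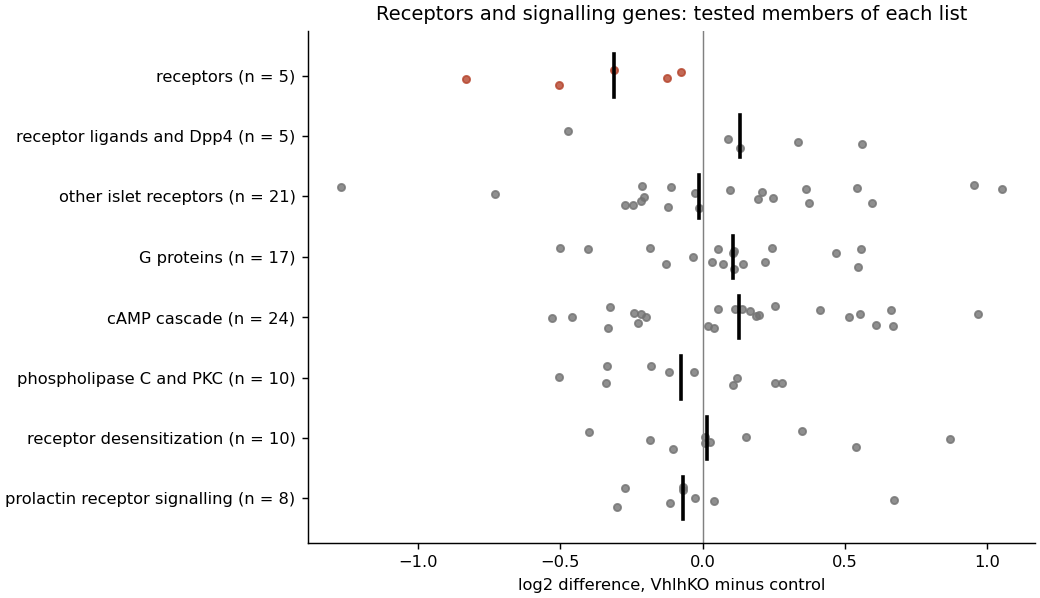
Log2 difference, VhlhKO minus control, of every tested gene in the receptor list and the 7 signalling lists; points are genes, black bars the median of a list, and vertical scatter within a list carries no meaning. The receptors run from -0.83 to -0.08 with a median of -0.31, and the other medians lie between -0.07 and 0.13.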

How the data were processed

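The authors deposited linear MAS5 intensity for each probe set, and the submitters' processing notes name GCOS 1.4 and MAS5. The 2% trimmed mean of every column came to 500.003, so the authors had scaled all arrays to a common level. Per the labels' protocols, RNA was amplified with a two-cycle kit before hybridization. No detection call or scan date was used here, and precision is limited by having 3 arrays per group.

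Of 45101 probe sets, 64 controls were left out, 34945 had 1 gene symbol, 932 several and 9160 none. RefSeq's table (GRCm38.p6) matched 34741 of them by Entrez ID and changed 0 symbols. Each gene was represented by its brightest probe set on average, with the _x_at kind (open to cross-hybridization) used only where nothing else was present. Log2 signals, with nothing added, were fitted with limma 3.58.1 under R 4.3.3 (lmFit, then eBayes with trend; statmod 1.5.0) over 11609 genes, with Benjamini-Hochberg adjustment at 0.05. Receptor probe sets outside that fit were tested with a two-sided exact permutation test. On simulated data for the same comparison and 11609 genes, limma recovered 3 of 50 genes changed by a log2 value of 1, 28 of 50 changed by 2 and 44 of 50 changed by 3. Figures were drawn with matplotlib 3.10.9. The receptors and gene lists were chosen with earlier results of these data known. The rule for named genes took the receptors, the 2 tested members of lowest p in each direction of each other signalling list, and the 5 genes most like the receptor of lowest p.

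Same-numbered samples share age and recorded sex. Deviations from the group means correlated at 0.15, 0.42 and 0.43 for numbers 1, 2 and 3, each above 0.1, so the numbers were taken to pair the samples. VhlhKO replicate 2 with control replicate 1 also reached 0.14, so this threshold cannot establish the pairing. Where no other setting is named, limma values come from the fit without pairing. A fit with the number as a block and 19 other alternatives were run, 3 of which (without both arrays of a number) were chosen after seeing the data.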

Additional observations from a re-analysis of the deposited data

How the results depend on the processing

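No receptor passed under any of the 20 alternatives. Glp1r and Gcgr stayed below 0 in all 20, between -1.05 and -0.55 and between -0.78 and -0.22. Sstr3 stayed below 0 in 19, and was at 0.17 when probe sets of a gene were averaged; single arrays left out gave -0.50 to -0.06. Gipr turned to 0.24 without VhlhKO replicate 1, 0.03 without control replicate 1, 0.01 without control replicate 3, 0.35 without both arrays of replicate 1, 0.0028 with array weights and 0.064 when centred on beta cell markers, and its lowest value was -0.47, without both arrays of replicate 2. Galr1 turned to 0.08 without VhlhKO replicate 2, 0.15 without control replicate 3, 0.04 without both arrays of replicate 3 and 0.016 when centred on beta cell markers, and ranged from -0.39 to 0.15 over single arrays left out. The receptors' median difference of -0.31 ranged from -0.50 without VhlhKO replicate 1 to -0.20 without control replicate 1 when arrays were left out one at a time. It was -0.078 with probe sets averaged, -0.13 with every probe set on its own, -0.17 when centred on beta cell markers and -0.47 without both arrays of replicate 2. With the replicate block, the paired fit gave an SE of 0.37 for Glp1r, 0.44 for Gipr, 0.24 for Gcgr, 0.21 for Sstr3 and 0.25 for Galr1. The unadjusted limma p was 0.0583 for Glp1r and 0.0694 for Gcgr. That paired fit left each receptor uncalled (adjusted p 0.98 for Glp1r), and 6 genes of all passed, against 2. That count was 0 to 5 when single arrays were left out, 4 with 32 added before log2, 4 with every probe set on its own, and 0, 1 and 0 without both arrays of replicates 1, 2 and 3. The causes were not tested. Dim signal, near or below the array medians, limits Glp1r, Gipr, Chrm3, the second Sstr3 probe set and 2 of the 3 Galr1 probe sets.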
